A study of Homo sapiens with 6 samples.

Results

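The pooled comparison sets 4 arrays of RT-112 cells that received an siRNA against PPP2R2A, with both siRNAs counted as a single group, against 2 arrays of cells that received a scramble siRNA. These are all 6 arrays of the study. The genes described are those for which all 4 knockdown arrays fell above, or all 4 fell below, both scramble arrays, here called separated genes. They numbered 3226 of the 12735 genes tested, with 1875 (14.7% of the genes tested) higher and 1351 (10.6%) lower on the knockdown arrays. Of them, 25 were also called, meaning an adjusted p under 0.05 in limma and a change of at least 1.5-fold: 24 were higher (0.188% of the genes tested) and 1 was lower (0.00785%). With the technical duplicates of each group averaged limma called 0 genes (725 at an unadjusted p under 0.05), and with the siRNA as a random block it called IFI44L alone. The separation and the limma test use the same values, so the first lends no support to the second. If the 6 arrays were interchangeable, all 4 would still fall on one side of the other 2 with a probability of 0.133. A separated gene is therefore not by itself a gene that responds. A gene was tested on 1 probe set, and a level is the deposited signal of that probe set on an array. A change is the mean log2(signal + 1) of the 4 knockdown arrays minus that of the 2 scramble arrays, in log2 units, and folds are on the same scale, which understates the change of dim genes.

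RT-112 is a human bladder cancer cell line. The groups were scramble siRNA, siPPP2R2A_1 (siRNA 1) and siPPP2R2A_2 (siRNA 2), with 2 arrays each, called A and B. All cells, scramble controls included, were plated at 50% confluence, received 50 nM siRNA with Lipofectamine RNAiMAX, were transfected again after 24 h and gave RNA a further 24 h later. RNA came from TRIzol followed by an RNeasy column and was labelled with biotin by the MessageAmp Premier protocol. One siRNA 1 title spells the gene PPP2ARA and was placed by its siRNA number. The arrays of a group are technical duplicates by the design text. P-values therefore measure only the spread between these arrays, and the knockdown was transient and in 1 cell line.

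Protein phosphatase 2A (PP2A) removes phosphate from serine and threonine residues of a large number of proteins. Its core is a catalytic subunit bound to a scaffold subunit, and a variable regulatory subunit directs that core to its substrates. PPP2R2A encodes the B55alpha regulatory subunit, known for dephosphorylating substrates of cyclin-dependent kinases at the exit from mitosis and for acting on AKT and on the retinoblastoma protein family.

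Across the tested genes, Pearson correlations of log2 values were 0.980 between the scramble arrays, 0.970 to 0.980 among the knockdown arrays and 0.973 to 0.978 between knockdown and scramble arrays. For ACTB the signal near the 3' end over that near the 5' end, a measure of RNA integrity and labelling, was 5.43 and 5.94 with scramble. It was 6.52 and 7.82 with siRNA 1, and 7.47 and 12.4 with siRNA 2, above both scramble arrays on all 4 knockdown arrays (two-sided exact permutation p = 0.133, the smallest that 4 against 2 arrays allow here). The same ratio for GAPDH averaged 1.00 ± 0.000495 (SD, n = 2) with scramble and 0.991 ± 0.0336 (SD, n = 4) with knockdown. The part of RNA integrity in the differences below was not tested. Of 11 urothelial and epithelial markers with a probe set, 10 were above the array median on all 6 arrays, and their summed signal was 141510 to 146420 with scramble and 120610 to 145890 with knockdown. None of 7 leukocyte markers was above the median on all 6 arrays (summed signal 231 to 246 with scramble and 217 to 307 with knockdown). For endothelial markers it was 2 of 7, PECAM1 and CDH5 (summed signal 455 to 527 and 355 to 512). For fibroblast markers it was 2 of 9, COL1A1 and LUM (6092 to 6357 and 5903 to 7653), and COL1A2, COL3A1, PDGFRA, PDGFRB and FAP were below the median on all 6 arrays. No marker with a probe set was listed at 0. In bulk RNA, fewer cells of a kind and less RNA per cell cannot be told apart.

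PPP2R2A, the targeted gene, was lower on every knockdown array. Its signal was 1381 and 1589 on the scramble arrays, 336 and 397 on the siRNA 1 arrays, and 510 and 533 on the siRNA 2 arrays. The highest knockdown array thus lay well below the lowest scramble array, and the siRNA 1 arrays lay below those of siRNA 2. The pooled change was -1.76 ± 0.21 (SE), a knockdown level 0.295 times that of scramble. With the siRNAs pooled, the difference between them counts as spread, and PPP2R2A was not called (limma adjusted p = 0.0581). PPP2R2A was called under 4 of 17 other settings and not under the rest, with changes from -1.86 to -1.25. Given a coefficient for each siRNA in limma, the same change was called (adjusted p = 0.0345). With an intensity trend in limma's prior variance it was called too (adjusted p = 0.00315). With the mean of its probe sets the change was -1.25 and was not called (limma adjusted p = 0.115). Another probe set was separated at a change of -2.16, from 446 and 435 with scramble to 72.4, 109, 105 and 112 with knockdown. A further one was not separated (change -0.21), since siRNA 1 array A read 334 against 287 and 281 with scramble.

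The count of called genes depended on every array. The number called higher was 0 without scramble array A, 2 without scramble array B, 1 without either siRNA 1 array, 0 without siRNA 2 array A and 2 without siRNA 2 array B. The number called lower was 1 without siRNA 1 array A and 0 without any other array. IFI44L was called in each of the 4 cases with a call, and the other genes called there, GUSBP2 and GDF5 (higher) and FPR1 (lower), were not among the 25. With limma at an unadjusted p under 0.05, 1104 genes were higher (8.67% of the genes tested) and 534 were lower (4.19%).

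**Figure D1:**
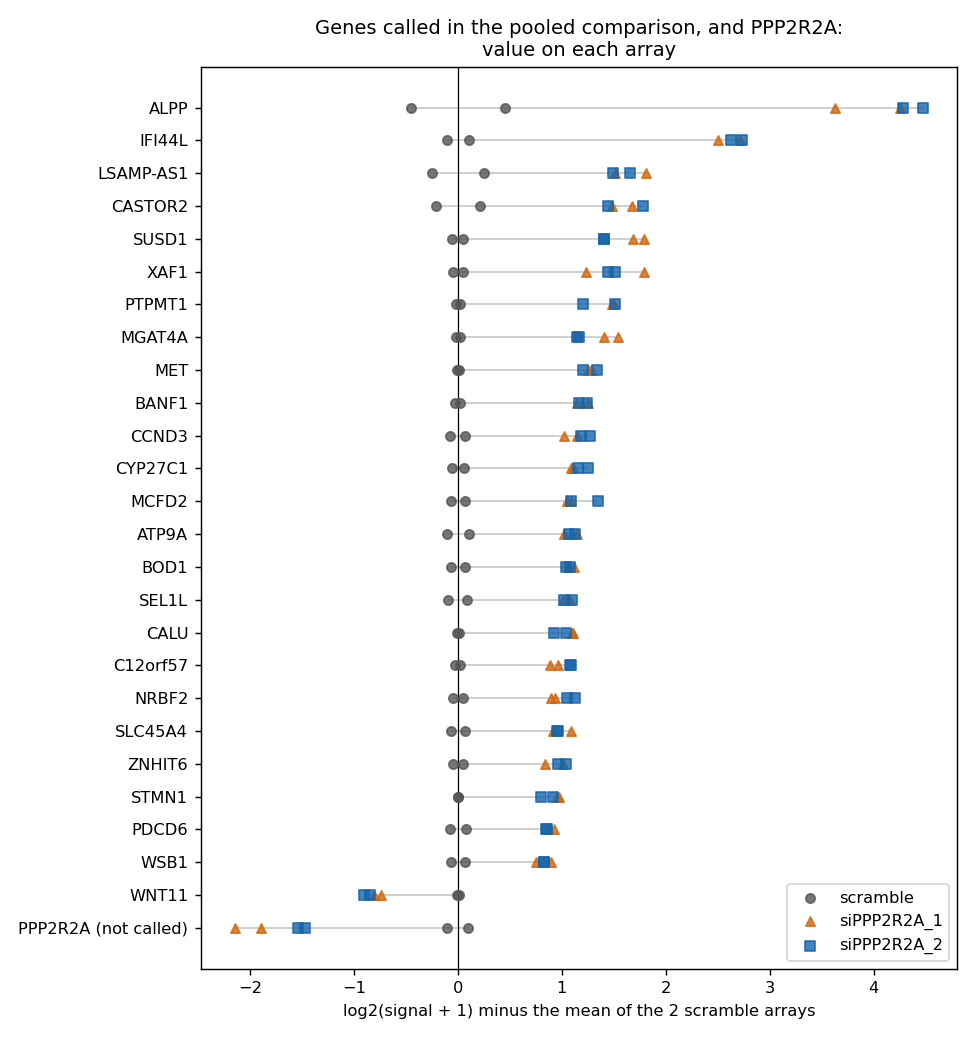
Log2(signal + 1) of each called gene, and of PPP2R2A, on each of the 6 arrays, as the difference from the mean of the 2 scramble arrays (x axis, log2 units). Grey circles are scramble arrays, orange triangles siRNA 1 arrays and blue squares siRNA 2 arrays. For every gene shown the 4 knockdown arrays lie on one side of both scramble arrays. Mean changes run from PPP2R2A, not called, at -1.76 to ALPP at 4.16, with WNT11 the lowest called gene at -0.82.

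The interferon-induced gene IFI44L had the smallest p of all genes tested. Its scramble arrays read 80.4 and 92.9, not far above their array medians of 70.9 and 76.2. Its siRNA 1 arrays read 572 and 493 and its siRNA 2 arrays 578 and 539. The knockdown arrays lay close together and the siRNAs overlapped. The change was 2.64 ± 0.11 (SE), a 6.24-fold rise (limma adjusted p = 0.00524), and it was called under 13 of 17 other settings. XAF1, an interferon-induced gene that binds the apoptosis inhibitor XIAP, rose by 1.49 (adjusted p = 0.0493). It stood at 102 and 109 with scramble and at 365, 248, 302 and 289 on the knockdown arrays in the order siRNA 1 A and B, siRNA 2 A and B, which is used throughout below. Another XAF1 probe set was separated in the same direction, with a change of 1.41.

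ALPP, placental alkaline phosphatase, had the largest change of the called genes. Its probe set read 13.02 and 6.48 with scramble and 125, 194, 198 and 226 with knockdown, a change of 4.16 ± 0.33 (adjusted p = 0.036). Both scramble values lay below the array medians of 69.3 to 76.2, so the gene passed the filter through its knockdown arrays and the size of the change rests on the background level. With a pseudocount of 16 in place of 1 it was 2.96. ALPP has near-identical relatives in the genome, and which of them the probe set read is uncertain. LSAMP-AS1, an antisense RNA, was the other called gene with both scramble arrays below the median, at 31.9 and 22.2 against 77.6, 95.5, 76.5 and 86.2 (change 1.61, adjusted p = 0.0493). For SUSD1 1 of the 2 scramble arrays was above the median, with 72.9 and 67.8 against 246, 228, 188 and 187 (change 1.57, adjusted p = 0.0429). The siRNA 2 arrays lay above the siRNA 1 arrays for ALPP and below them for SUSD1, differences that limma did not call (adjusted p = 0.588 and 0.167).

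MET, the receptor tyrosine kinase for hepatocyte growth factor, read 2985 and 3023 with scramble and 7152, 7295, 7604 and 6921 with knockdown. The siRNAs overlapped and the lowest knockdown array was far above both scramble arrays. The rise was 1.27 ± 0.08 (2.41-fold, adjusted p = 0.0298). With the mean of all its probe sets in place of the brightest, the change of MET was 0.40. Its other probe sets above the filter gave 0.24 and 0.71. CCND3, cyclin D3, which activates the kinases of the G1 phase, rose from 923 and 836 to 1778, 1941, 2124 and 1998 (1.15, adjusted p = 0.0429). It had no other probe set above the filter, and with the mean of all its probe sets, dim ones included, CCND3 turned to -0.10.

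Both called genes of the list of B55 inhibitors and reported substrates rose. BANF1, a DNA-binding protein needed to rebuild the nuclear envelope after mitosis, went from 1417 and 1466 to 3190, 3428, 3412 and 3238, a rise of 1.20 ± 0.08 (adjusted p = 0.0298). BOD1, which inhibits a different PP2A complex at kinetochores, went from 1953 and 2143 to 4423, 4299, 4193 and 4307 (1.07 ± 0.08, adjusted p = 0.036). In both genes the 4 knockdown values varied little. The other 23 tested members of that list were not called, among them MASTL at a change of 0.12, ENSA at -0.12, ARPP19 at 0.05, AKT1 at -0.11, RBL1 at -0.16 and RBL2 at -0.25. Of all 25 tested members, 3 were separated upwards, against 14.7% of all genes tested. Another 4 of the 25 were separated downwards, KSR1 (-0.32) and CDC25C (-0.22) among them, against 10.6% of all genes tested. These counts are small, and whether either share differs from that of all genes was not tested. The median change of the list was -0.06, with 9 changes above 0 and 16 below. STMN1, a protein that destabilises microtubules, was the 1 of 30 mitosis genes called, from 928 ± 1.44 (SD, n = 2) to 1746 ± 92.9 (SD, n = 4), a rise of 0.91. The mean of its probe sets gave 0.04. Mitosis genes were separated upwards in 4 of 30 (13.3%) and downwards in 5 (16.7%), at a median change of 0.0005.

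SEL1L and CALU were the 2 called genes of the unfolded protein response list. SEL1L, the adaptor of a ubiquitin ligase that removes misfolded proteins, rose from 1840 and 1621 to 3642, 3484, 3690 and 3507 (1.05, adjusted p = 0.0401). CALU, a calcium-binding protein of the endoplasmic reticulum, rose from 1550 and 1569 to 3346, 3352, 2959 and 3210 (1.04, adjusted p = 0.0401). For both genes the other probe sets also lay above 0. The 4 of CALU ranged from 0.32 to 1.23 and the 3 of SEL1L from 0.07 to 1.18. MCFD2, which with LMAN1 carries cargo to the Golgi, was the 1 of 31 endoplasmic reticulum to Golgi transport genes called and rose from 2261 and 2477 to 4886, 5030, 6005 and 5037 (1.14, adjusted p = 0.045). Its other probe sets showed changes of -0.13 and -0.07 and were not separated, and its partner LMAN1 stood at -0.18. The mean of the probe sets of MCFD2 gave 0.31. The transport list was separated upwards in 8 of 31 (25.8%, against 14.7% of all genes tested) and downwards in 2 (6.45%, against 10.6%). Its median change was 0.06.

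PDCD6, a calcium-binding protein of vesicle transport, rose from 2727 and 3032 to 5281, 5467, 5200 and 5185 (0.88, adjusted p = 0.0431). ATP9A, a phospholipid-flipping ATPase of endosomes, rose from 1793 and 1549 to 3386, 3680, 3487 and 3643 (1.09, adjusted p = 0.0423). NRBF2, a subunit of the autophagy lipid kinase complex, rose from 450.3 and 483 to 870.2, 892, 1019 and 963 (1.00, adjusted p = 0.045). A further NRBF2 probe set gave 0.93, while the mean of the probe sets gave 0.35 for PDCD6 and 0.42 for ATP9A. MGAT4A, which branches N-glycans in the Golgi, rose from 406 and 417 to 1092, 1200.4, 926 and 911 (1.31, adjusted p = 0.0493). The mean of its probe sets gave 0.72. It was the 1 called of 34 tested glycosylation genes. Of these, 5 were separated upwards (14.7%, as over all genes tested) and 5 downwards (14.7%, against 10.6%), at a median change of -0.06.

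The remaining called genes had varied roles. PTPMT1, a mitochondrial phosphatase of cardiolipin synthesis, rose from 426 and 413 to 1173, 1190.0, 969 and 1193 (1.43, adjusted p = 0.0369). CASTOR2, a relative of the arginine sensor of the mTORC1 pathway, rose from 114 and 154 to 425, 371, 456 and 363 (1.59, adjusted p = 0.045). CYP27C1, a cytochrome P450 that desaturates retinoids, rose from 413 and 446 to 914, 926, 1026 and 954 (1.15, adjusted p = 0.036). The siRNAs overlapped for PTPMT1 and CASTOR2, and for CYP27C1 both siRNA 2 arrays lay above those of siRNA 1. ZNHIT6, an assembly factor of small nucleolar RNA particles, rose by 0.96, the solute carrier SLC45A4 by 0.98, C12orf57 by 1.01 and the ubiquitin ligase adaptor WSB1 by 0.83 (adjusted p from 0.0431 to 0.0493). The mean of the probe sets gave 0.25 for ZNHIT6, 0.61 for SLC45A4 and 0.26 for WSB1.

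WNT11, a secreted ligand of the WNT family, was the 1 gene called lower. Its signal was 292 and 288 with scramble and 173, 165, 155 and 161 with knockdown. All 4 knockdown arrays lay within a narrow range below both scramble arrays. The change was -0.82 ± 0.09 (SE), a scramble level 1.77 times that of knockdown (adjusted p = 0.0456). It was called under 3 of 17 other settings.

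Of the lower genes that were not called, ID3 was nearest to the threshold (adjusted p = 0.0504). ID3, an inhibitor of basic helix-loop-helix transcription factors, read 2698 and 2583 with scramble and 1249, 1264, 1249 and 1504 with knockdown, a change of -1.01. The related ID1 (-0.62, adjusted p = 0.101) and ID2 (-0.49, adjusted p = 0.238) were separated in the same direction. SYNPO, an actin-associated protein, read 532 and 591 against 323, 307, 286 and 274 (change -0.92, adjusted p = 0.0553), and it stood at 0.04 with the mean of its probe sets. The squamous serpin SERPINB3 (-0.90) and the acetylcholine receptor subunit CHRNA6 (-1.18) had the same adjusted p of 0.0581. All 4 knockdown arrays of CHRNA6, at 36.7 to 49.1, were below the array median, so it passed the filter through its scramble arrays and the size of its change rests on the background level. The endosomal protein ANKFY1 (-0.84) and the divergent transcript CHKB-DT (-0.81) stood at 0.0625, the antisense RNA MAPT-AS1 (-0.86) at 0.0734 and the dynein adaptor BICD1 (-0.67) at 0.0925. None of these was called, and for ANKFY1, CHKB-DT and BICD1 the mean of the probe sets lay at -0.22, 0.03 and 0.23.

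Most separated genes differed little between the groups. The median change was 0.32 among the 1875 higher genes and -0.27 among the 1351 lower ones. A change of at least 1.5-fold was reached by 369 higher and 177 lower genes, at least 2-fold by 91 and 49, and at least 4-fold by 6 and 4. In 338 of the 369 and 112 of the 177 the means of the siRNAs were within 1.5-fold of each other. These genes were chosen with both siRNAs on the same side of scramble, so this closeness is partly built in. By the limma contrast between the siRNAs, 0 of the higher separated genes and 4 of the lower ones differed between the siRNAs at an adjusted p under 0.05: SKAP2, DEFB1, MREG and ADAMTS10. That contrast has 3 residual degrees of freedom and left HMGA2 uncalled at a difference of 0.86 (limma adjusted p = 0.0617). It therefore does not show that the siRNAs agree. Its count over all genes tested is not listed here, so whether these counts are particular to separated genes cannot be told. Genes with both scramble arrays below the array median and all 4 knockdown arrays above it numbered 41, and genes with the opposite pattern 32. The separation itself has no tolerance. Among genes at 1.5-fold or more, the higher gene just inside, PTGDR2, cleared the highest scramble array by 0.012 on the log2 scale, and the lower one, DPH3P1, by 0.00124, while ZSWIM5 and MTUS2 missed by 0.00374 and 0.000129.

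**Figure D2:**
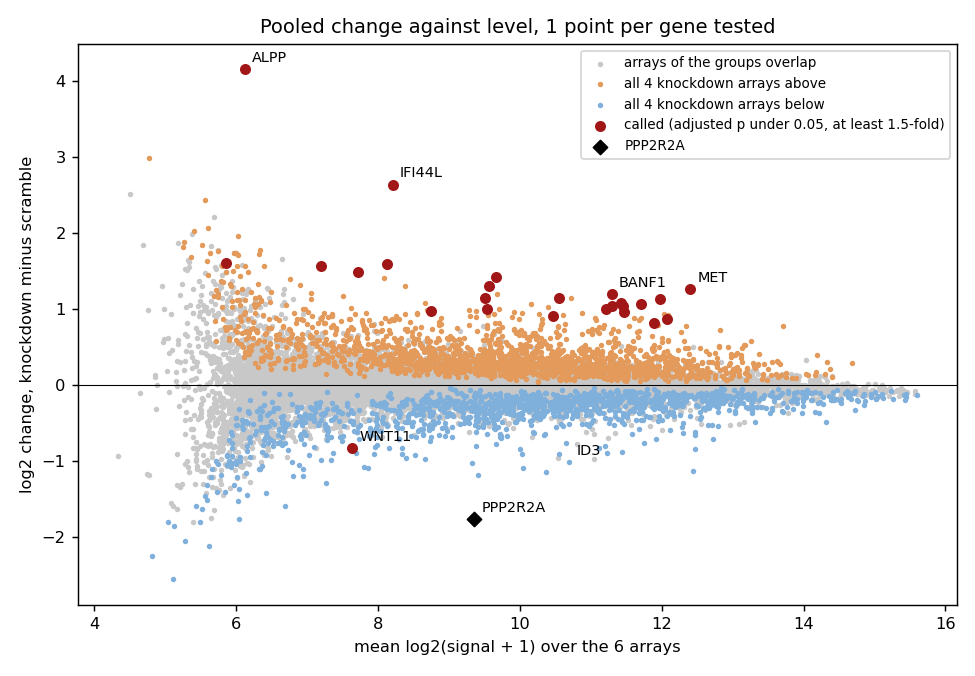
Pooled change (y axis, log2, knockdown minus scramble) against mean level (x axis, mean log2(signal + 1) over the 6 arrays), 1 point per tested gene. Orange and blue points are separated genes, grey points have overlapping groups, red circles are the 25 called genes and the black diamond is PPP2R2A. Called genes lie at low and high levels alike, with 24 above 0 and 1 below.

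Several genes had more than 1 probe set on the array, which allows a partial check on the same RNA. For 13 of the 25 called genes further probe sets passed the filter, 24 in all. Of these 24, 18 had a change of the gene's sign and 12 were also separated in that direction, in 8 genes. The other 12 called genes had 1 probe set above the filter. The probe sets of 7 called genes, BANF1, SEL1L, CALU, C12orf57, STMN1, NRBF2 and WSB1, are of a type that can also bind related transcripts.

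Among lists of functionally related genes, the tested interferon response genes were separated upwards in 22 of 46 (47.8%, against 14.7% of all genes tested) and downwards in 1 (2.17%, against 10.6%), SAMD9 at -0.27. Their median change was 0.26, against 0.01 over all genes tested. IFI44L and XAF1 were the 2 called. In limma 18 of the 46 had an unadjusted p under 0.05, all higher, against 8.67% of all genes tested in that direction. The proteins of this group restrict viruses and sense or signal foreign RNA. IFITM1, a membrane protein that blocks viral entry, read 265 and 225 with scramble and 420, 583, 533 and 556 with knockdown (1.08, adjusted p = 0.0913). The knockdown arrays were all higher, siRNA 1 array A least so. IFI27 (1.01), IFI6 (0.88), the interferon signalling factor IRF9 (0.87), BST2 (0.82) and RSAD2 (0.77) were separated upwards too, none of them called. The nucleotide kinase CMPK2 stood at 0.71 (adjusted p = 0.0625). In contrast, MX1 (-0.05), ISG15 (-0.02), OAS1 (0.08) and IFIT2 (-0.20) were not separated. The median of the list was 0.45 for siRNA 1 and 0.10 for siRNA 2, each against the same scramble arrays.

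The letters GAAANNGAAA, the core of the interferon-stimulated response element, were searched on both strands in the 250 bases before each gene's start (RefSeq promoter table, GRCh38.p14). They were present for 1014 of all 27305 genes with a promoter (3.71%) and for 25 of the 39 interferon list members with one, 13 of them among the 20 separated upwards. Over the tested genes with a promoter the share was 3.2%, and over the interferon list members with a promoter 64.1%. Of the 20 called genes with a promoter, IFI44L alone held a match. Below, capitals mark the match, and the sequence runs in the direction of the gene. Stretches of 60 bases are shown for the members separated upwards with a match that had the smallest limma p. They lie at chr1:78620259-78620318 for IFI44L, chr11:313975-314034 for IFITM1 and chr2:6877607-6877666 for RSAD2, all on the plus strand, and the RSAD2 match is on the opposite strand.
IFI44L: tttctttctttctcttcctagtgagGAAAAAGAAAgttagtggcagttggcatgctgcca
IFITM1: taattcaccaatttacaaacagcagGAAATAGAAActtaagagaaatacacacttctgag
RSAD2: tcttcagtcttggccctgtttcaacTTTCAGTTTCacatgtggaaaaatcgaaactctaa
These matches are a description of the letters in the window and do not show binding.

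**Figure D3:**
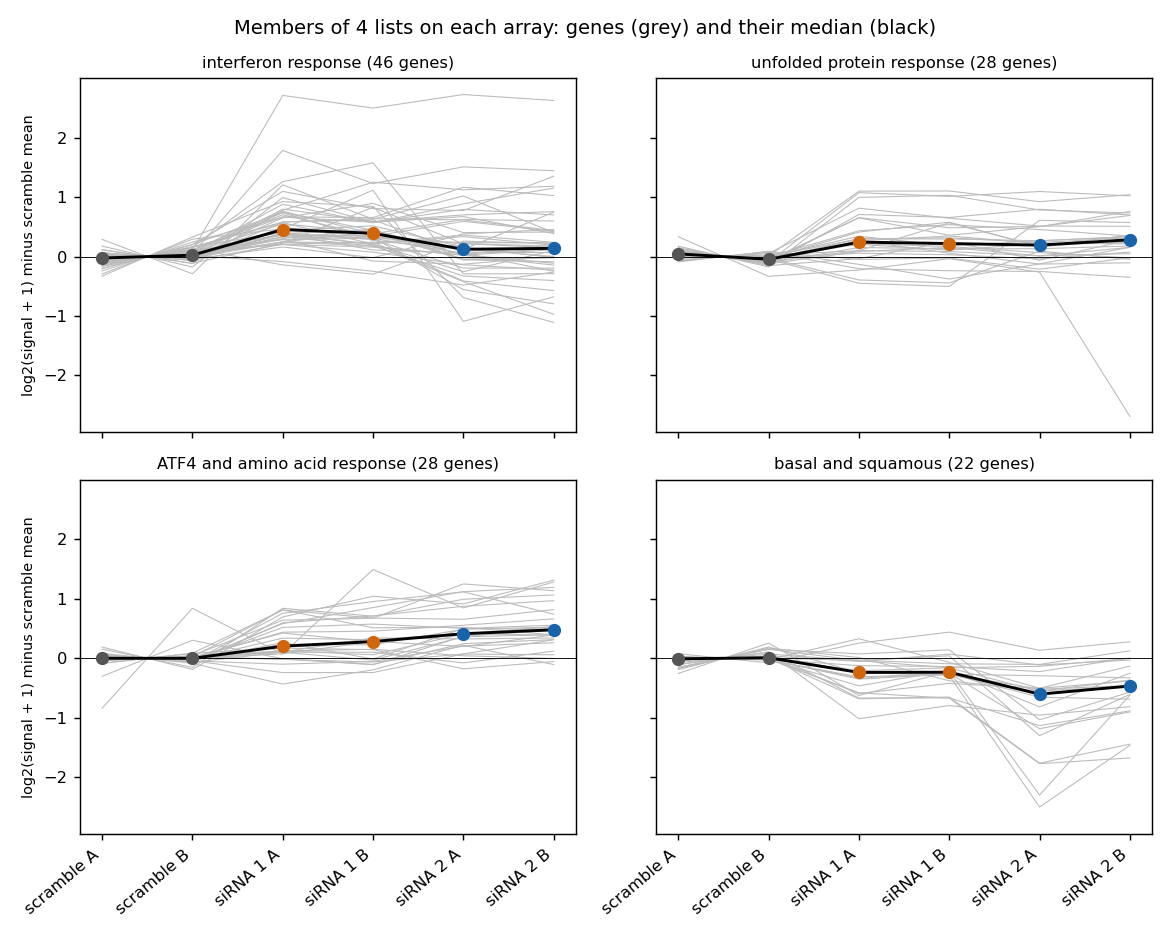
Log2(signal + 1) of each tested member of 4 lists on each array, as the difference from its mean over the 2 scramble arrays (y axis, log2 units). Grey lines are genes and the black line with coloured points is the median of the list on each array. The medians of the first 3 lists lie above 0 on all 4 knockdown arrays and that of the basal and squamous list below 0, with the interferon median higher for siRNA 1 (0.45) than for siRNA 2 (0.10).

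Genes of the unfolded protein response encode chaperones and degradation factors of the endoplasmic reticulum. They were separated upwards in 16 of 28 tested (57.1%, against 14.7% of all genes tested) and downwards in 1, EDEM1 (-0.26). Their median change was 0.23. In limma 13 of the 28 had an unadjusted p under 0.05 in the upward direction (8.67% of all genes tested), SEL1L and CALU among them. The co-chaperone DNAJC3 read 2586 and 2154 with scramble and 3858, 3727, 4099 and 3834 with knockdown (0.72, adjusted p = 0.0913). The disulfide isomerase PDIA4 read 2512 and 1972 against 4441, 4552, 3833 and 3702 (0.89, adjusted p = 0.109). Neither gene's groups overlapped, and the scramble arrays of both differed more than their siRNA 1 arrays did. CRELD2 (0.62), HERPUD1 (0.58), the transcription factor XBP1 (0.44) and the chaperone HSPA5 (0.29) were separated upwards and not called. HSP90B1 (0.02), CANX (0.03) and the sensor ERN1 (0.06) were not separated.

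The endoplasmic reticulum stress element, spelled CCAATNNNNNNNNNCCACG, was found on either strand in 25 of all 27305 promoters (0.0916%) and in 7 of 25 members of this list, 5 of them among the 16 separated upwards. Over the tested genes with a promoter the share was 0.146%. None of the 20 called genes with a promoter held the element. Stretches of 60 bases are shown for 3 separated members, at chr22:49918533-49918592 (plus strand) for CRELD2, chr22:28800583-28800642 (minus strand) for XBP1 and chr9:125241371-125241430 (minus strand) for HSPA5. Capitals mark the match, which in CRELD2 lies on the strand opposite to the gene.
CRELD2: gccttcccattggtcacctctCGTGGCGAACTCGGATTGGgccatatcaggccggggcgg
XBP1: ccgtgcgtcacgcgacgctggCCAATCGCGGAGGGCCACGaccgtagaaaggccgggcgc
HSPA5: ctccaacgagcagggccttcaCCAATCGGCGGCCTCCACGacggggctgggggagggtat

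The list of ATF4 targets and the amino acid response holds genes that supply amino acids and charge transfer RNA when translation is restrained. It was separated upwards in 16 of 28 tested (57.1%, against 14.7% of all genes tested) and downwards in 0. The median change was 0.35, with 0.23 for siRNA 1 and 0.46 for siRNA 2, and no member was called. In limma 14 of the 28 had an unadjusted p under 0.05, all higher, against 8.67% of all genes tested in that direction. The cystine transporter SLC7A11 came nearest, at 1393 and 1567 with scramble and 2594, 2363, 2330.1 and 2607 with knockdown (0.74, adjusted p = 0.0704). VLDLR, a lipoprotein receptor, read 327 and 302 against 532, 609.9, 683 and 526 (0.89, adjusted p = 0.0925). In both genes every knockdown array was above the scramble arrays. The transcription factor DDIT3 (0.99), the glutathione-degrading CHAC1 (0.94), the asparagine synthetase ASNS (0.93), STC2 (0.90), the pseudokinase TRIB3 (0.79) and the tryptophan ligase WARS1 (0.52) were also separated upwards. ATF4 itself stood at 0.33 and was not separated, nor were SLC7A5 (-0.09) and PSPH (-0.13).

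The letters TGATGNAA, an ATF4 element, stood in 1061 of all promoters (3.89%) and in 5 of 24 members of this list, 4 of them among the 14 separated upwards. Over the tested genes with a promoter the share was 2.48%. MCFD2 was the 1 of the 20 called genes with a promoter that held these letters. Stretches of 60 bases are shown for 3 separated members, at chr15:40953236-40953295 (plus strand) for CHAC1, chr16:70289660-70289719 (minus strand) for AARS1 and chr7:97872443-97872502 (minus strand) for ASNS. Capitals mark the match, which in CHAC1 and AARS1 lies on the strand opposite to the gene.
CHAC1: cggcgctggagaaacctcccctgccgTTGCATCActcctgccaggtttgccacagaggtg
AARS1: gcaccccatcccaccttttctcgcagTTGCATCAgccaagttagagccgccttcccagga
ASNS: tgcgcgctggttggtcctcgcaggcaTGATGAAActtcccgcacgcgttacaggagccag

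The basal and squamous list, genes of keratinising epithelium, was separated downwards in 12 of 22 tested (54.5%, against 10.6% of all genes tested) and upwards in 1, DSG3 (0.28). Of 34 listed genes 12 did not enter the test. The median change was -0.40, with -0.26 for siRNA 1 and -0.52 for siRNA 2, and no member was called. In limma 8 of the 22 had an unadjusted p under 0.05, all lower, against 4.19% of all genes tested in that direction. SPRR3, a protein of the cornified envelope, read 7740 and 8944 with scramble and 5230.4, 5245, 3793 and 4506 with knockdown (-0.84, adjusted p = 0.134). The envelope protein IVL read 12607 and 12841 against 8443, 9493, 8964 and 9749 (-0.48, adjusted p = 0.136). The keratin KRT5 read 7305 and 7106 against 5647, 5991, 5878 and 5735 (-0.31, adjusted p = 0.211). For SPRR3 the siRNA 2 arrays were the lowest, and for IVL and KRT5 the siRNAs overlapped. DEFB1, an epithelial defensin, differed between the siRNAs (adjusted p = 0.0467), with 1181 and 1158 for scramble, 782 and 734 for siRNA 1, and 341 and 365 for siRNA 2. The luminal urothelial list was separated downwards in 7 of 23 (30.4%) and upwards in 1, PPARG (0.26), with a median of -0.13. Among its members the uroplakin UPK1B stood at -0.54 and GATA3 at -0.23, and none was called.

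**Figure D4:**
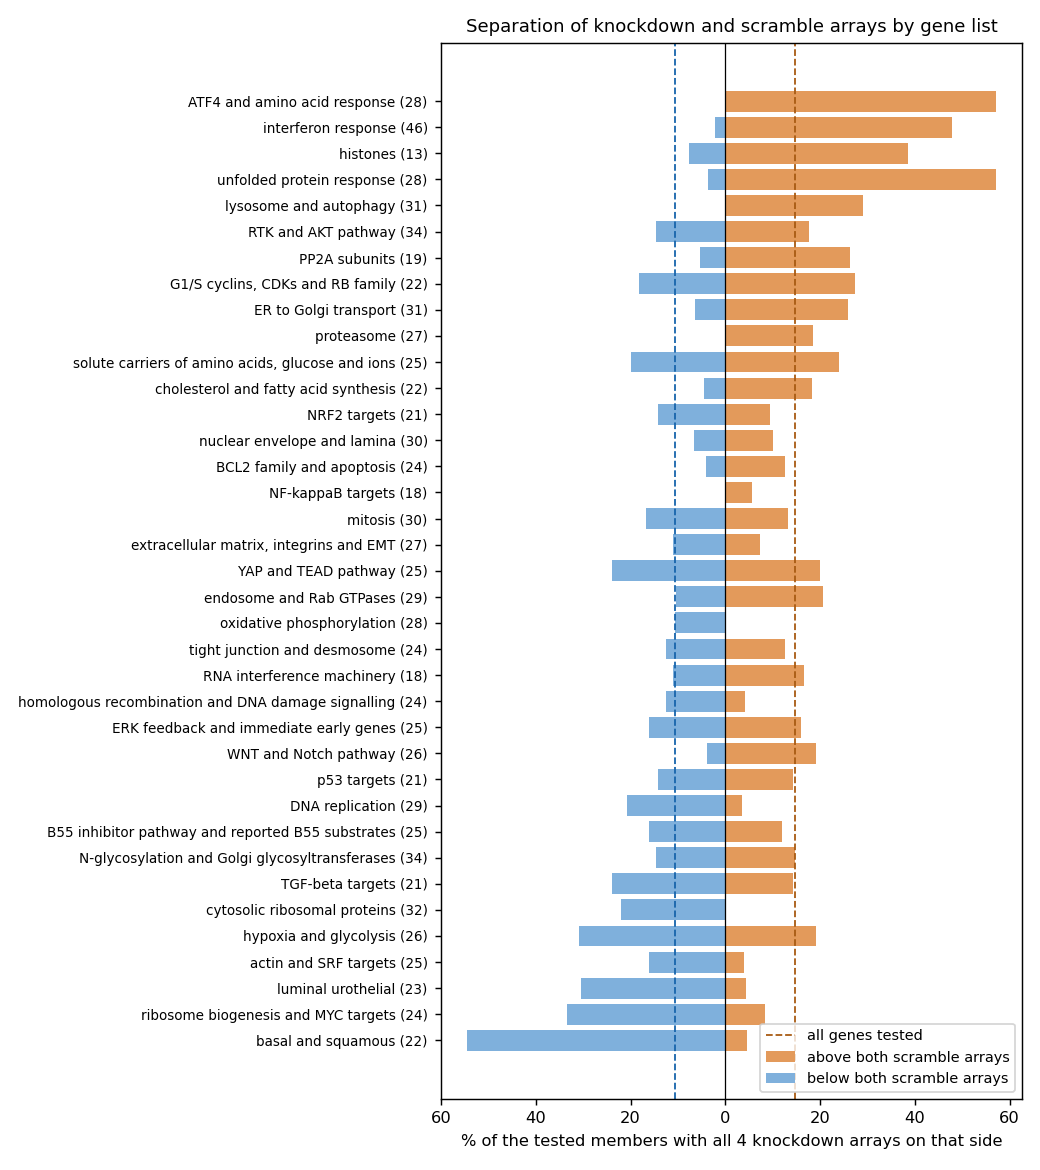
Share of the tested members of each of 37 gene lists (number of tested genes in brackets) with all 4 knockdown arrays above (orange, right) or below (blue, left) both scramble arrays, in percent. Dashed lines are the shares over all genes tested, 14.7% above and 10.6% below. The unfolded protein response and the ATF4 list reach 57.1% above, and the basal and squamous list 54.5% below.

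Of 19 PP2A subunits tested, 5 were separated upwards (26.3%, against 14.7% of all genes tested) and 1, PPP2R2A, downwards (5.26%, against 10.6%), and none was called. The scaffold subunit PPP2R1B read 834 and 843 with scramble and 1623, 1336, 2034 and 1960.3 with knockdown (1.03, adjusted p = 0.125). The other scaffold subunit, PPP2R1A, read 504 and 714 against 785, 763, 1002 and 909 (0.52, adjusted p = 0.333). Both had their highest values on the siRNA 2 arrays. PPP2CA, a catalytic subunit, was separated at 0.20, and the other catalytic subunit, PPP2CB, stood at -0.05 and was not. The related B55 subunits PPP2R2B (-0.09), PPP2R2C (0.08) and PPP2R2D (0.20) were not separated.

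Receptor tyrosine kinase and AKT pathway genes were separated upwards in 6 of 34 (17.6%) and downwards in 5 (14.7%), near the 14.7% and 10.6% over all genes tested. Beside MET these included LRIG1, a negative regulator of such receptors (2.03, adjusted p = 0.109), and FGFR2 (-0.59, adjusted p = 0.125). LRIG1 read 14.5 and 16.7 with scramble and 104, 79.9, 48.6 and 49.1 with knockdown. Only its siRNA 1 arrays were above the array median, so its change rests on the background level. G1/S genes were separated upwards in 6 of 22 (27.3%) and downwards in 4 (18.2%). CDK6 stood at -0.58, the kinase inhibitors CDKN1B at 0.45 and CDKN1A at 0.42, and MYC at -0.40, and of the list CCND3 alone was called. DNA replication genes were separated downwards in 6 of 29 (20.7%) and upwards in 1, POLA1 (3.45%), with a median of -0.05. For homologous recombination genes it was 3 of 24 downwards (12.5%, near the 10.6% of all genes tested) and 1 upwards, RPA1 (4.17%). In the YAP pathway PTPN14, a phosphatase that binds YAP, read 695.4 and 694 with scramble and 1555, 1636, 1402 and 1300.1 with knockdown. It was the higher gene nearest to the threshold that was not called (1.08, adjusted p = 0.0504), and the co-activator WWTR1 stood at 0.71 (adjusted p = 0.0581).

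Over all genes tested 14.7% were separated upwards and 10.6% downwards. Histone genes were separated upwards in 5 of 13 tested (38.5%), with the linker histone H1-10 at 0.93 (adjusted p = 0.109) and a median of 0.25. Of 29 listed histones 16 did not enter the test. Lysosome and autophagy genes were separated upwards in 9 of 31 (29.0%) and downwards in 0, mostly by small amounts, such as LAMP1 at 0.10 and TFEB at 0.25, and NRBF2 was called. Ribosome biogenesis and MYC targets were separated downwards in 8 of 24 (33.3%), NIP7 and CAD lowest at -0.40 each. Within that list 2 genes were separated upwards, the polyamine enzyme ODC1 (0.95) and RRS1 (0.42). For cytosolic ribosomal proteins 31 of 32 changes lay below 0 at a median of -0.07, which turned to 0.0047 after quantile normalization, and 7 were separated downwards. Hypoxia and glycolysis genes were separated downwards in 8 of 26 (30.8%), such as PGK1 at -0.35, and upwards in 5, such as VEGFA at 0.50. No member of these lists other than NRBF2 was called.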

How the data were processed

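The authors deposited linear signal intensity per probe set for the 6 arrays, made with Affymetrix Expression Console per the submitters' processing notes; version and algorithm: not given in the sources used here. No detection calls were used. Of 54675 probe sets, 62 were controls, 41091 carried exactly 1 gene symbol, 1801 several and 11721 none. Those with 1 symbol were looked up by Entrez identifier in RefSeq (41037 matched, 54 did not, 0 symbols changed). Each of 19775 genes was represented by its probe set of highest mean log2(signal + 1). A gene was tested when this was above the array median on at least 2 arrays, so a gene could pass through its higher group. This removed 7040 genes and left 12735, of which 4381 (34.4%) rest on probe sets that can bind related transcripts.

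Limma 3.58.1 in R 4.3.3 fitted 1 coefficient for the 4 knockdown and 1 for the 2 scramble arrays (lmFit, eBayes; 4 residual and 1.93 prior degrees of freedom), with p-values adjusted by Benjamini-Hochberg across every gene tested. The fit was also run on simulated independent arrays. That simulation leaves out the technical duplicates and the difference between the siRNAs, so it does not bear on them. The difference between the siRNAs came from a fit with 3 group coefficients. Precision is limited by the number of arrays. Figures used matplotlib 3.10.9.

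The members, the lists and the tests were chosen with earlier results of these data known. By rule the text names PPP2R2A, called separated genes by size (10 in each direction) and by p, up to 4 separated genes per list by p, and, where fewer are called, the separated genes of smallest p. Other genes named were chosen after their values were seen. Alternatives were other designs, normalizations, filters, pseudocounts and probe set rules, and leaving out each array.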

Additional observations from a re-analysis of the deposited data

Results flagged for a closer look

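In 34 genes named in the text the 4 knockdown arrays were checked for an array far from the other 3 by Dixon's test, and 3 genes had one. PTPMT1 read 968.91 on siRNA 2 array A, below the other knockdown arrays and above both scramble arrays. ID3 read 1503.9 on siRNA 2 array B, above the other knockdown arrays and below both scramble arrays. MCFD2 read 6005.4 on siRNA 2 array A, above the other knockdown arrays. At the 95% level used, chance alone marks about 1 in 20 groups.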

How the results depend on the processing

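Against 24 genes called higher and 1 lower, limma called 49 and 16 with a coefficient for each siRNA, 122 and 16 with an intensity trend, 80 and 11 when genes had to be above the median on all arrays, 29 and 4 with a pseudocount of 16, 19 and 0 after quantile normalization, 4 and 0 with each array centred on its median, 3 and 0 with the mean of probe sets, 2 and 1 with no filter (IFI44L with genes not among the 25), and 1 and 0 with the siRNA as a random block. It called 0 with duplicates averaged (725 at an unadjusted p under 0.05) and 0 with the replicate block (1416). The labels do not say what the letters A and B stand for. Deviations of same-letter arrays from their group means were nearly uncorrelated between groups (-0.0309, 0.0139 and 0.0383). Without each array in turn it called 0 to 2 higher and 0 to 1 lower (992 to 1618 at an unadjusted p under 0.05), and separated genes numbered 2203 to 3318 higher and 1723 to 2717 lower. With duplicates averaged, 4479 were separated higher and 3894 lower. Of the 25 called genes, 22 were called with a coefficient for each siRNA, 19 after quantile normalization, 23 with an intensity trend and all 25 with a pseudocount of 16. With the mean of probe sets SYNPO turned to 0.042638, CHKB-DT to 0.029563, BICD1 to 0.23178 and CCND3 to -0.098628; the cause was not tested. List medians kept their sign in every setting run for interferon (0.21 to 0.30), unfolded protein response (0.15 to 0.27), ATF4 (0.29 to 0.40), histones (0.21 to 0.32) and basal and squamous genes (-0.50 to -0.31). Keeping the sign was not particular to these lists. Others that kept it include the B55 list (-0.10 to -0.04), ribosome biogenesis (-0.18 to -0.11) and lysosome and autophagy (0.07 to 0.13). All settings draw on the same 2 scramble arrays. Signal near the array median limits what dim genes can show.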

Other observations

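Probe sets with several gene symbols or none entered no comparison above. Of 5405 of them above the same filter, limma called 0 in the pooled comparison, with 470 at an unadjusted p under 0.05. All 4 knockdown arrays lay above both scramble arrays for 546 (10.1%) and below them for 512 (9.47%).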
